A study of Homo sapiens with 12 samples.

Results

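The 174 miRNAs described here are the 3p arms numbered miR-6715 to miR-6895. They were taken by name from all 12 libraries as every human miRNA with a number in that range, with or without a letter, whose name ends in -3p. They make up 174 of the 2656 mature miRNA names counted. The study compared small RNA of AC16 cells with small RNA of the exosomes they release, to find miRNAs of exosomes that differ in hypertrophic cardiomyocytes. AC16 is an established human line made by fusing ventricular heart cells with a transformed fibroblast line. Each of the 4 groups held 3 libraries: whole cells under a condition named Con or Ang, and exosomes under the same 2 conditions. The count columns of the Ang libraries are headed AngII, and no source used here spells the agent out or gives its dose or duration. All groups share the AC16 line, and no other treatment or genetic change is named in the labels. Nothing says whether the 3 replicates of a group came from separate cultures, and the p-values then measure the spread between these samples only, which may be technical.

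A miRNA is a short RNA that guides Argonaute to messenger RNAs, which it recognises mainly through its seed, bases 2 to 8 from the 5′ end. Most miRNAs are cut from hairpins by Drosha and then Dicer, whereas a mirtron is a short intron that becomes a hairpin after splicing and enters the pathway at Dicer. The 3p arm of a mirtron therefore ends at the 3′ splice site, and it carries the pyrimidine-rich tract and the terminal AG of the intron. Exosomes are small vesicles of endosomal origin that carry RNA out of the cell.

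Of the 174 members, 155 had a mature sequence in the RefSeq table (GRCh38.p14). The 19 others are the 3p arms of miR-6747, miR-6782, miR-6783, miR-6785, miR-6838, miR-6841, miR-6842, miR-6843, miR-6845, miR-6846, miR-6847, miR-6848, miR-6849, miR-6850, miR-6858, miR-6876, miR-6880, miR-6885 and miR-6893. miR-6785-3p and miR-6850-3p, the most abundant members in exosomes, are among these 19. The first set of sequences below shows the most abundant members with a sequence. The last 3 bases are in capitals because most members end in the last bases of an intron.
miR-6762-3p: uggcugcuucccuuggucucCAG
miR-6836-3p: augccucccccggccccgCAG
miR-6805-3p: uugcucugcucccccgccccCAG
miR-6776-3p: caaccaccacugucucucccCAG
miR-6814-3p: acucgcauccuucccuuggCAG
miR-6790-3p: cgaccucggcgaccccucACU
miR-6884-3p: cccaucaccuuuccgucuccCCU

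The first 5 of these end in CAG, and miR-6790-3p and miR-6884-3p do not. Over the 155 members with a sequence, 99 ended in CAG (63.9%), against 6.46% of the other names ending in -3p and 2% of the 5p arms of the same hairpins. C made up a median of 45.5% of their bases (range 18.2% to 61.9%), and 101 members were over 40% C. The medians were 23.8% for other 3p names, 14.3% for the 5p arms and 22.7% for all names with a sequence. Lengths ran from 17 to 24 bases, with a median of 21.

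Against the GENCODE release 29 gene models of GRCh38, the mature 3′ end lay within 2 bases of an annotated splice acceptor in 132 of 155 members (85.2%), and exactly on the last intron base in 116. Among 666 other 3p names with a position, 52 (7.81%) lay that close. Where several introns matched a member, named genes were preferred, then protein-coding ones, then the shortest intron. The 132 introns so chosen had a median length of 339 bases (range 74 to 9998), and 46 were under 200 bases. In 5 of the 132 the mature 5p arm also began within 5 bases of the splice donor, as in a mirtron that fills its whole intron. A member without a listed 5p arm could not be counted here. A further 5 members lay at a donor only, 16 lay inside an intron, and 2 had no host gene on their strand. The 153 hosted members lay in 148 different genes, 151 of the members in protein-coding genes. The label mirtron-like thus describes the position of most members with a sequence, while only 5 were placed at both ends of the same intron.

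The second set shows the members with the largest Ang changes, with the seed in capitals, since the seed sets which messenger RNAs a miRNA can pair with. The first 5 were higher in Ang exosomes, the next 5 lower in Ang exosomes, and the last 2, with miR-6790-3p above, higher in Ang cells.
miR-6805-3p: uUGCUCUGcucccccgcccccag
miR-6816-3p: gAAGGACCugcaccuucg
miR-6798-3p: cUACCCCCcaucccccuguag
miR-6888-3p: aUCUGUCUcgauuguuuccag
miR-6877-3p: cAGCCUCUgcccuuggccucc
miR-6775-3p: aGGCCCUGuccucugccccag
miR-6869-3p: cGCCGCGCgcaucggcucagc
miR-6882-3p: uGCUGCCUcuccucuugccugcag
miR-6865-3p: aCACCCUCuuucccuaccgcc
miR-6892-3p: uCCCUCUCccaccccuugcag
miR-6826-3p: cUCCCCUCucuuuccuguucag
miR-6781-3p: uGCCUCUUuuccacggccucag

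No seed recurred among these 12 members. The hairpin of miR-6805 lies in RPL28, a protein of the large ribosomal subunit, at chr19:55388181-55388242 on the plus strand, in an intron of 194 bases whose acceptor is its 3′ end. The hairpin of miR-6816 lies inside an intron of TRMT2A, a tRNA methyltransferase gene, at chr22:20114686-20114751 on the minus strand. The hairpin of miR-6775 ends at an intron acceptor of SLC7A5, an amino acid transporter, at chr16:87834592-87834660 on the minus strand. The hairpin of miR-6869 lies at the donor of an intron of FKBP1A, which encodes the rapamycin-binding protein FKBP12, at chr20:1392900-1392961 on the minus strand. The hairpins of miR-6805 and miR-6869 also overlap an exon of another annotated transcript on their strand.

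Over all 155 sequences, 5 pairs of members shared a seed. They are shown in full because reads of 2 members with one seed differ only outside it, and because such members can pair with the same sites.
miR-6819-3p: aAGCCUCUguccccaccccag
miR-6877-3p: cAGCCUCUgcccuuggccucc
miR-6801-3p: aCCCCUGCcacucacuggcc
miR-6810-3p: uCCCCUGCucccuuguuccccag
miR-6784-3p: uCUCACCCcaacucugccccag
miR-6862-3p: cCUCACCCagcucucuggcccucu
miR-6764-3p: uCUCUGGUcuuuccuugacag
miR-6824-3p: uCUCUGGUcuugccaccccag
miR-6791-3p: uGCCUCCUuggucuccggcag
miR-6829-3p: uGCCUCCUccguggccucag

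Of these 10 members only miR-6877-3p passed the threshold in a comparison of Ang with Con. Its partner miR-6819-3p was far less abundant, at 9.14 ± 2.90 CPM (counts scaled by library total; SD, n = 3) in exosomes Con against 380 ± 8.45 for miR-6877-3p. In exosomes over cells, miR-6801-3p and miR-6810-3p were both higher in Con (log2 3.65 and 2.03, adjusted p = 8.33e-07 and 9.31e-05, from the fit described below). The CPM of miR-6810-3p overlapped between the groups, and its call ended on library totals. By the same fit miR-6791-3p and miR-6829-3p were also both higher in Con (log2 0.94 and 0.77, adjusted p = 0.024 and 0.012). On library totals miR-6791-3p was not called and miR-6829-3p was called lower.

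Library totals ran from 413513 to 528844 UMIs in cells and from 697049 to 1029883 in exosomes, where a UMI (unique molecular identifier) marks 1 captured molecule. A count of 3 came to between 2.91 and 7.25 CPM, which covers counting error only. The summed CPM of 6 cardiac muscle miRNAs was 333 to 369 in cells Con, 273 to 310 in cells Ang and 54.3 to 89.6 in exosomes, and miR-499a-5p was at 0 in 4 exosome libraries. Of the cell libraries, Ang replicate 2 stood apart in blood cell markers: the 7 markers summed to 2041 to 2374 CPM in the other 5 and to more in it, with miR-142-3p at 2041 CPM against 99.0 to 145. Of the exosome libraries, Con replicate 1 stood apart from its group over all names. Its chi-square per degree of freedom was 6.57 and 10.6 against the other two, which differed from each other by 1.91. Over the members alone the same 3 values were 1.32, 1.68 and 1.38. No pair of libraries within a group was identical.

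The members together held 3.77% ± 0.11 of all UMIs in cells Con and 3.73% ± 0.032 in cells Ang (SD, n = 3). Their share of exosome UMIs was 5.68% ± 0.13 in Con and 5.46% ± 0.23 in Ang. The exosome libraries, at 5.21% to 5.83%, were all above the cell libraries, at 3.65% to 3.86%, while Con and Ang overlapped within each compartment. Of the UMIs of all names ending in -3p, members held 12.2% to 12.9% in cells and 12.8% to 15.0% in exosomes. The 5p arms of the same numbers went the other way, with 6.62% to 7.0% in cells and 4.16% to 4.23% in exosomes. All 174 members had a count in every cell library, and between 1 and 5 were at 0 in each exosome library. The median member stood at 33.6 CPM in cells Con and 41.3 in cells Ang, against 27.9 and 30.9 over all names. In exosomes it stood at 20.7 CPM in Con and 17.0 in Ang, against 7.95 and 6.32.

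A single member made up much of the exosome share. miR-6785-3p was counted at 24024, 22659 and 23086 CPM in exosomes Con and at 25040, 21734 and 23641 in exosomes Ang, but at 193 to 246 CPM in the 6 cell libraries. It was the eighth most abundant of all names in exosomes Con and the fourth in exosomes Ang, and it held 40.9% and 43.0% of the member UMIs. Without it the members' share of exosome UMIs was 3.36% ± 0.067 in Con and 3.11% ± 0.064 in Ang, both below the full member share in cells. Without the cells' own leader, miR-6884-3p, the cell share was 2.99% ± 0.087 in Con and 3.04% ± 0.064 in Ang. That is below exosomes in Con and close to them in Ang. After miR-6785-3p, miR-6850-3p came next in exosomes Con at 6409 ± 341 CPM. miR-6762-3p at 4838 ± 254, miR-6836-3p at 2668 ± 84.3 and miR-6790-3p at 2434 ± 142 followed. In exosomes Ang, miR-6805-3p at 2670 ± 207 CPM took the fifth place. The 5 leading members held 69.7% of member UMIs in exosomes Con and 69.8% in Ang.

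Cells had other leaders. miR-6884-3p, whose hairpin ends at an intron acceptor of MED24, a Mediator subunit gene (chr17:40026332-40026409, minus strand), led with 7545, 8017 and 7806 CPM in cells Con and 6546, 7064 and 7152 in cells Ang. The 2 groups did not overlap, but the change did not pass the test (log2 -0.18, SE 0.061, adjusted p = 0.093). An alternative test, DESeq2, did call miR-6884-3p lower in cells Ang. miR-6776-3p stood second with 4007 ± 250 and 3560 ± 218 CPM. It comes from an intron of CLUH, whose protein binds messenger RNAs for mitochondrial proteins. miR-6762-3p (an intron of TPCN1, an endolysosomal cation channel gene), miR-6850-3p and miR-6814-3p (an intron of RIPK4, a protein kinase gene) followed with 2306 ± 67.8, 1631 ± 170 and 1283 ± 99.4 CPM in cells Con. The 5 leaders held 45.2% of member UMIs in cells Con and 43.1% in cells Ang, less than the 5 leaders in exosomes.

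**Figure D1:**
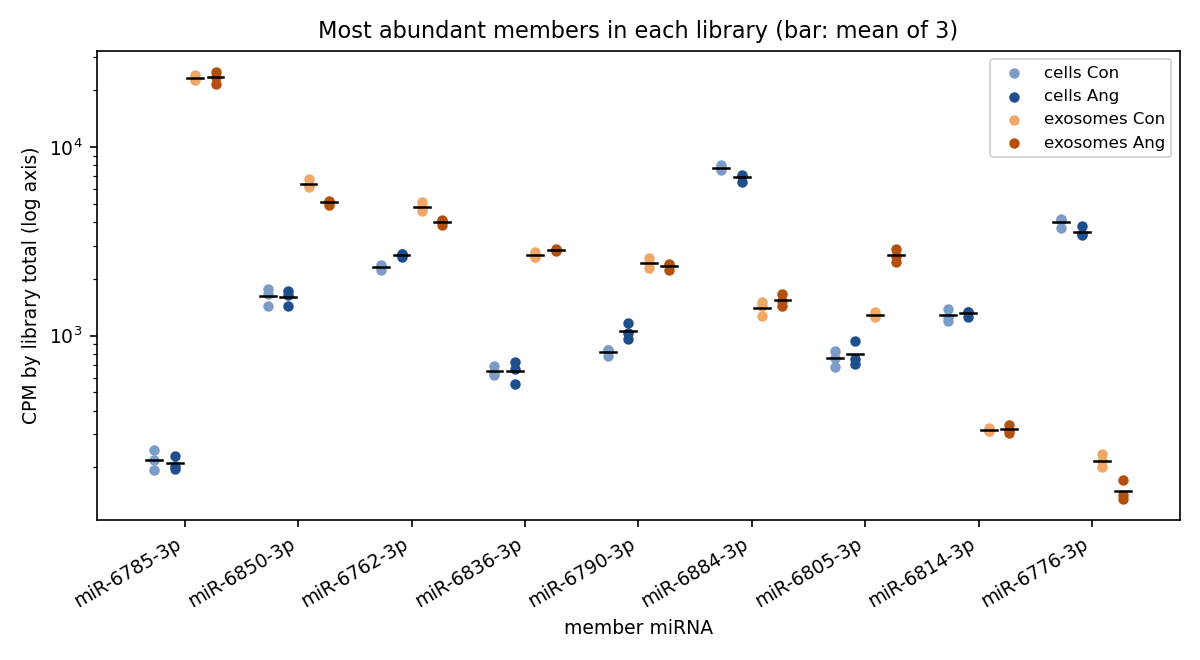
CPM (vertical axis, log scale) of the 9 members that were among the 5 most abundant of any group. Each point is a library, coloured by group, and each bar is the mean of 3. miR-6785-3p lies near 23256 CPM in exosomes and near 219 in cells, while miR-6884-3p and miR-6776-3p lie higher in cells, and only miR-6762-3p and miR-6850-3p are among the leaders of all 4 groups.

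Exosomes were compared with cells separately in Con and in Ang, to describe which members the vesicles carry. Counts were fitted with edgeR's quasi-likelihood test on the TMM scale, with Benjamini-Hochberg adjustment over all tested names and a threshold of 0.05, and fold changes are on that scale throughout. In Con, 133 members had enough counts to be tested, and 73 of these (54.9%) were higher in exosomes and 29 (21.8%) lower. Over all 1710 names tested, 39.2% were higher and 44.2% lower (83.3% called in all). In Ang, 68 of 129 tested members (52.7%) were higher and 30 (23.3%) lower, against 38.2% and 45.1% of all 1627 names (83.3% called in all). The median log2 difference of tested members was 0.77 in Con and 0.51 in Ang, against -0.27 and -0.31 over all names. A member low in both compartments was not tested, so these counts describe tested members, and the 41 untested in Con had at most 23.8 CPM in either group. CPM ranges of exosomes and cells were separate for 112 of 133 tested members in Con (84.2%) and 116 of 129 in Ang (89.9%), against 89.1% and 91.0% of all names.

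The direction of many of these calls rested on the scaling. With library totals in place of TMM factors the median of all names moved from -0.27 to -1.79 in Con and from -0.31 to -2.21 in Ang, and the members' medians to -0.74 and -1.39, so members stayed above the median of all names on both scales. On library totals 34 members were higher and 74 lower in Con, and 29 and 85 in Ang, against 20.2% higher and 67.6% lower of all names in Con, and 18.1% and 72.3% in Ang. Of the 73 members higher in Con, 34 stayed higher and 15 turned lower, and of the 68 in Ang, 29 stayed higher and 24 turned lower. The 29 and 30 lower calls stayed lower. Exosome RNA and cell RNA were extracted with different kits per the labels, so compartment and extraction cannot be told apart.

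The members highest in exosomes relative to cells were far above the scaling shift. On the TMM scale miR-6785-3p was 303-fold higher in Con (log2 8.24, SE 0.097, n = 3 per group, adjusted p = 2.59e-13). In Ang it was 412-fold higher (log2 8.69, SE 0.13). By library totals its mean CPM was 23256 in exosomes against 219 in cells in Con, and 23471 against 210 in Ang. Those ratios are smaller than the TMM folds. miR-6760-3p, from an intron of the homeobox gene CUX2, was counted at 30.3, 31.0 and 25.9 CPM in cells Con and at 324, 329 and 341 in exosomes Con, a log2 difference of 5.0 (SE 0.13, adjusted p = 6.09e-11). Every exosome library lay more than 10 times above every cell library of its group for these 2 members in Con. miR-6821-3p (PIM3, a protein kinase gene), miR-6864-3p (CAMTA2, a calmodulin-binding transcription activator gene), miR-6825-3p (TPRA1), miR-6797-3p (RPS19, a protein of the small ribosomal subunit), miR-6738-3p and miR-6894-3p (KDM5C, a histone demethylase gene) followed in Con, with log2 differences from 4.82 down to 4.28. In Ang the same comparison gave 4.95, 5.34, 4.07, 4.59, 4.62 and 4.58 for these 6 in that order. miR-6887-3p, from an intron of FXYD3, a regulator gene of the sodium pump, was at 4.12 in Con and 4.36 in Ang.

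The members lowest in exosomes relative to cells included some with only a few counts there. miR-6837-3p, from an intron of DBNL, an actin-binding protein gene, was counted at 357, 306 and 387 CPM in cells Con and at 2.91, 1.13 and 2.06 in exosomes Con, which is 511 counts against 6. Its log2 difference was -5.81 in Con and -4.41 in Ang. miR-6840-3p (PILRB) was at 124 ± 21.8 CPM in cells Con and 2.0 ± 1.73 in exosomes Con, with a log2 difference of -4.33 in Con and -3.53 in Ang. miR-6855-3p (USP20, a deubiquitinase gene) fell from 1124 ± 156 to 30.1 ± 6.48 CPM (log2 -3.70), and in Ang from 1143 ± 116 to 22.8 ± 1.79 (log2 -3.75). For each of these 3 members no exosome library reached the lowest cell library.

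miR-6776-3p, second among members in cells, was at 216, 235 and 201 CPM in exosomes Con and 143, 137 and 172 in exosomes Ang, a log2 difference from cells of -2.69 and -2.67. miR-6856-3p (FUBP3) and miR-6838-3p were also lower in both conditions, at log2 -2.96 and -2.82 in Con and -2.27 and -2.98 in Ang. For miR-6822-3p and miR-6755-3p exosomes Con held 3 counts each over 3 libraries, so only a ratio of summed counts is given: cells were higher 11.6-fold (95% interval 3.76 to 58.2) and 7.29-fold (2.28 to 37.2), on the TMM scale. For miR-6733-3p exosomes Ang held 1 count, and the same ratio was 14.2 (2.34 to 580). These intervals cover counting error only. In Ang, miR-6806-3p was lower with a log2 difference of -2.19.

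**Figure D2:**
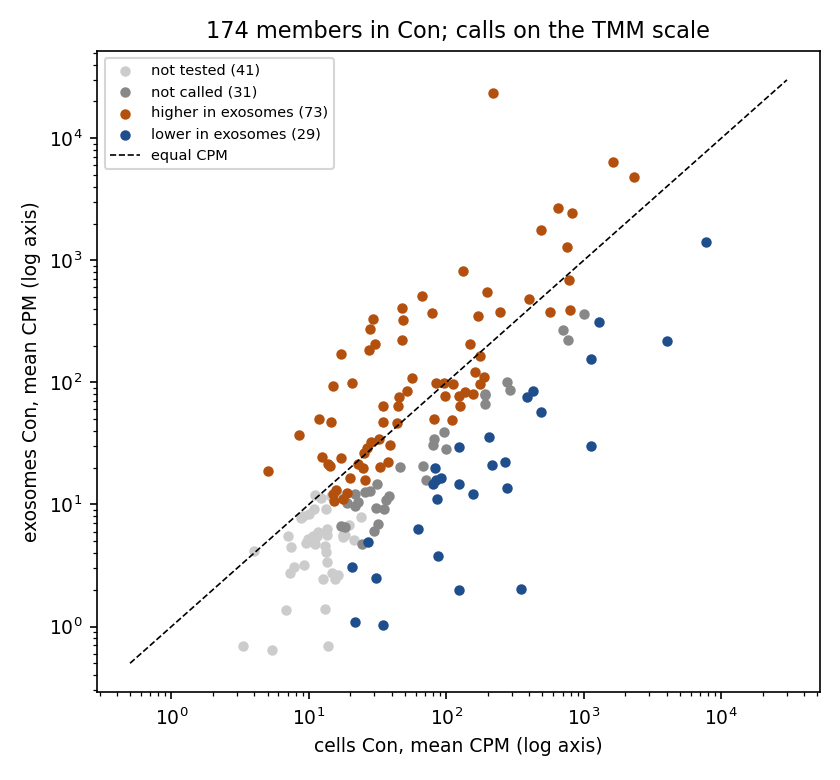
Mean CPM of each of the 174 members in cells Con (horizontal axis) and exosomes Con (vertical axis), both on log scales, coloured by the TMM call, with a dashed line at equal CPM. The 73 higher members include many on or below the dashed line, since the calls are on the TMM scale, and miR-6785-3p stands alone near 23256 CPM in exosomes.

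Summed markers of other kinds also differed between compartments. Names whose sequences overlap fragments of other RNAs (7 names) summed to 10327 to 13718 CPM in cells and 17263 to 26971 in exosomes. Fibroblast and smooth muscle miRNAs (6 names) summed to 29724 to 34568 in cells and 984 to 2027 in exosomes. Most of that second sum was miR-21-5p, at 25212 to 29869 CPM in cells and 489 to 1264 in exosomes. The part of these sums in the members' differences was not tested.

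Base composition went with the compartment difference. Across 121 tested members with a sequence, the share of C and the log2 difference of exosomes over cells in Con had a Spearman correlation of 0.33 (Pearson 0.38), and across 118 in Ang 0.35 (Pearson 0.39). The same Spearman value was 0.37 and 0.38 across other 3p names (n = 434 and 410), slightly above the members, and 0.26 and 0.24 across all names, below them. These are correlations across names that share libraries and a scaling, and names are not independent replicates. The median share of C was 47.6% in the members higher in exosomes Con and 40.9% in those lower. Position at a splice acceptor was common in both: 57 of 70 higher members with a sequence (81.4%) and 24 of 26 lower ones (92.3%). With the Ang change the share of C had Spearman correlations of 0.011 in exosomes and -0.12 in cells, across the 105 and 113 members with a sequence that were tested there.

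**Figure D3:**
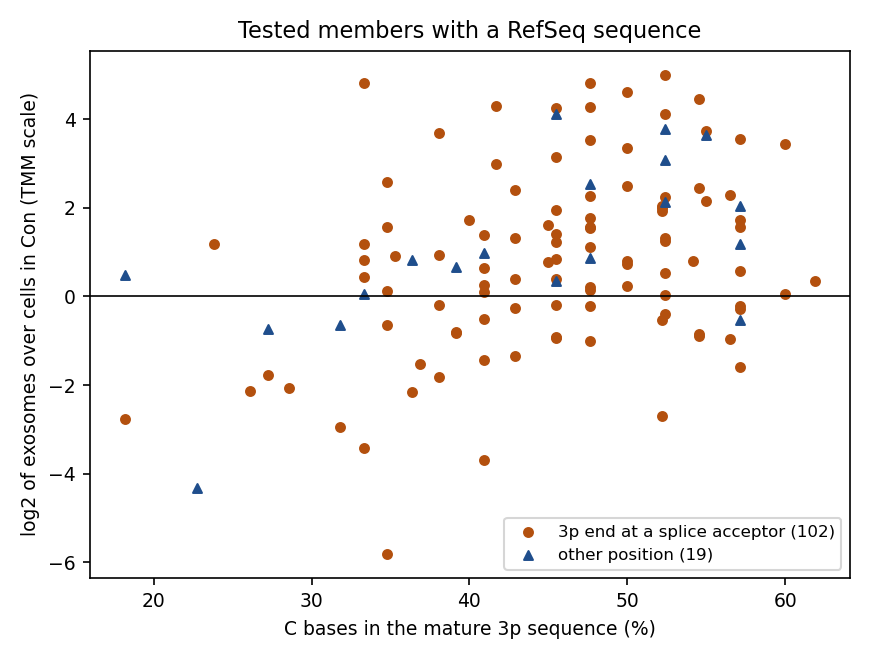
Share of C in the mature sequence (horizontal axis, percent) against the log2 difference of exosomes over cells in Con on the TMM scale (vertical axis) for 121 tested members with a sequence. Circles end at a splice acceptor (102) and triangles lie elsewhere (19), and members under 30% C lie mostly below 0 (Spearman 0.33 over all points).

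The design of the study names consensus sequences of exosomal miRNAs, so 3 short motifs were counted in the mature strand as printed, chosen after the sequences were seen. GGAG, which is known as part of exosome motifs read by hnRNPA2B1, was in 0 of 155 members, against 15.7% of all names with a sequence and 9.76% of other 3p names. GGCU, known as a core of the exosome motif read by SYNCRIP, was in 11 members (7.10%), against 12.6% of all names and 9.01% of other 3p names. CCCU was in 76 members (49.0%), against 11.9% of all names and 14.1% of other 3p names. It was in 58.6% of the members higher in exosomes Con, 46.2% of those lower and 60% of those not called. GGCU was in 7.14%, 11.5% and 8% of the same 3 sets. A match of letters is a description and not a binding site.

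The share of the 3p arm among a hairpin's UMIs was taken within each library and is hence free of scaling. Of the members' 171 hairpins with both arms counted, the 3p arm held over 50% of the UMIs of 89 hairpins in cells Con and 86 in cells Ang, and of 89 and 90 in the exosomes of Con and Ang. In exosomes Con all 3 libraries had a higher 3p share than the 3 cell Con libraries in 53 hairpins (31.0%) and a lower one in 58 (33.9%), against 31.4% and 28.7% of all 863 hairpins with both arms counted, so the shares were near those over all hairpins. The hairpins below were chosen after their values were seen. For miR-6785 the 3p arm held 27.0% ± 1.37 of the hairpin's UMIs in cells Con and 99.8% ± 0.034 in exosomes Con, while its 5p arm went from 592 ± 36.9 to 47.7 ± 9.35 CPM. For miR-6836 the 3p share was 24.1% ± 1.3 in cells Con and 81.9% ± 0.4 in exosomes Con.

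For miR-6760 it was 43.2% ± 2.5 and 94.5% ± 1.2, and for miR-6738 27.3% ± 5.3 and 84.3% ± 1.0. These 4 hairpins thus went from a 5p to a 3p majority. The reverse held for miR-6756, with 89.3% ± 1.6 in cells Con and 20.3% ± 2.9 in exosomes Con, and for miR-6855, with 56.6% ± 2.6 and 6.5% ± 1.5. In cells Ang and exosomes Ang the same shares were 25.3% and 99.9% for miR-6785, 19.7% and 86.9% for miR-6836, 86.2% and 33.3% for miR-6756, and 56.6% and 4.5% for miR-6855. miR-6805, miR-6762 and miR-6884 were nearly all 3p everywhere, at 98.6%, 99.2% and 99.7% in cells Con and 99.6%, 99.8% and 97.8% in exosomes Con. Between exosomes Ang and exosomes Con the shares did not overlap in 46 hairpins, higher in Ang in 22 (12.9%, against 10.4% of all hairpins) and lower in 24 (14.0%, against 11.4%).

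The effect of Ang on exosomal members bears most directly on the aim of the study. Of 115 tested members, 13 were higher in Ang (11.3%, against 16.9% of all 1199 names tested) and 14 lower (12.2%, against 17.1%). The 27 calls are 23.5% of tested members, below the 34.0% called over all names. The median log2 change was -0.10, against -0.05 over all names. CPM ranges of Con and Ang were separate for 55 of the 115 members (47.8%, against 52.4% of all names). The other 59 members were not tested and had at most 15.8 CPM in either group. In bulk libraries a lower level from fewer vesicles of one kind and from less RNA in each cannot be told apart.

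miR-6805-3p, from RPL28, changed most. It was counted at 1293, 1256 and 1330 CPM in exosomes Con and at 2881, 2467 and 2661 in exosomes Ang, which is 2.31-fold higher (log2 1.21, SE 0.075, adjusted p = 2.26e-06, n = 3 per group). Every Ang library lay above every Con library, and in cells the level was 758 ± 74.7 CPM in Con and 799 ± 121 in Ang. miR-6816-3p, from TRMT2A, was counted at 375, 351 and 371 CPM in exosomes Con and at 757, 710 and 744 in exosomes Ang (log2 1.18, SE 0.079, adjusted p = 3.12e-06). The 3 libraries of each group lay close together, with a wide gap between the groups. In cells it was at 1006 ± 89.8 CPM in Con and 808 ± 178 in Ang. In Ang the CPM of exosomes and cells overlapped, while on the TMM scale exosomes were 3.40-fold higher (adjusted p = 6.82e-10), and on library totals the log2 difference was -0.14 and did not pass the test.

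miR-6798-3p, from an intron of RUVBL2, an ATPase gene of chromatin remodelling complexes, was counted at 90.3, 110 and 97.8 CPM in exosomes Con and at 155, 172 and 170 in exosomes Ang (log2 0.91, SE 0.12, adjusted p = 0.00021). miR-6888-3p (TANC1) was counted at 84.5, 76.5 and 71.0 CPM and at 131, 99.2 and 143 (log2 0.84, SE 0.17, adjusted p = 0.0033). Its Ang libraries spread more widely than those of miR-6798-3p, and neither member's groups overlapped. miR-6877-3p, from an intron of GTF3C5, a gene of the RNA polymerase III factor TFIIIC, was at 380 ± 8.45 CPM in Con and 592 ± 18.2 in Ang (log2 0.80). miR-6748-3p, miR-6727-3p (INTS11, the endonuclease gene of the Integrator complex) and miR-6803-3p (PPP6R1, a phosphatase regulatory subunit gene) rose by 0.76, 0.52 and 0.51 on the log2 scale. The other 5 higher members were miR-6887-3p, miR-6812-3p, miR-6894-3p, miR-6884-3p and miR-6836-3p, with log2 changes from 0.49 down to 0.26. Of these 5, only miR-6887-3p was still called on library totals, and DESeq2 did not call miR-6812-3p. The CPM of Con and Ang overlapped for miR-6812-3p and miR-6884-3p.

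miR-6775-3p, from SLC7A5, fell most. It was counted at 96.1, 75.4 and 85.5 CPM in exosomes Con and at 37.3, 31.3 and 32.3 in exosomes Ang, which is 2.29-fold lower (log2 -1.20, SE 0.17, adjusted p = 0.00043). miR-6869-3p, from FKBP1A, was at 382, 339 and 328 CPM in Con and at 164, 172 and 160 in Ang (log2 -0.92, SE 0.11, adjusted p = 0.00015). For both, the highest Ang library lay far below the lowest Con library. miR-6882-3p, from an intron of the protein kinase gene ULK3, was at 572, 553 and 538 CPM in Con and at 247, 284 and 273 in Ang (log2 -0.88, SE 0.089, adjusted p = 5.11e-05). miR-6865-3p, inside an intron of CAMTA2, was at 57.3, 64.2 and 72.1 CPM in Con and at 34.4, 34.5 and 32.3 in Ang (log2 -0.77, SE 0.16, adjusted p = 0.0037). The groups of these 2 members did not overlap either, and DESeq2 did not call miR-6865-3p.

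miR-6892-3p (ZYX, the gene of the focal adhesion protein zyxin), miR-6759-3p (CDK4, a cell cycle kinase gene), miR-6871-3p (PLCG1, a phospholipase gene), miR-6763-3p (FBRSL1) and miR-6746-3p (FADS3, of the fatty acid desaturase family) fell by 0.74, 0.66, 0.62, 0.60 and 0.55 on the log2 scale. miR-6746-3p was the most abundant of these, and the call of miR-6763-3p (adjusted p = 0.039) ended with RLE factors, DESeq2 or without some single libraries. The other 5 lower members were miR-6789-3p, miR-6743-3p, miR-6833-3p, miR-6722-3p and miR-6852-3p. Of these 5, all but miR-6833-3p lost their call with DESeq2, with all 12 libraries in the fit and without some single libraries. The 3 most abundant exosome members did not pass the test: miR-6785-3p had a log2 change of 0.18 (SE 0.074, adjusted p = 0.093), miR-6850-3p -0.17 (adjusted p = 0.097) and miR-6762-3p -0.10 (adjusted p = 0.31). miR-6785-3p was called higher with DESeq2 (adjusted p = 0.033), with the replicate block, with all 12 libraries in the fit, without exosomes Con replicate 1 and without exosomes Ang replicate 2. On library totals its log2 change was 0.012, and miR-6850-3p and miR-6762-3p were called lower there. miR-6850-3p was also called lower with no count filter and without exosomes Con replicate 3.

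**Figure D4:**
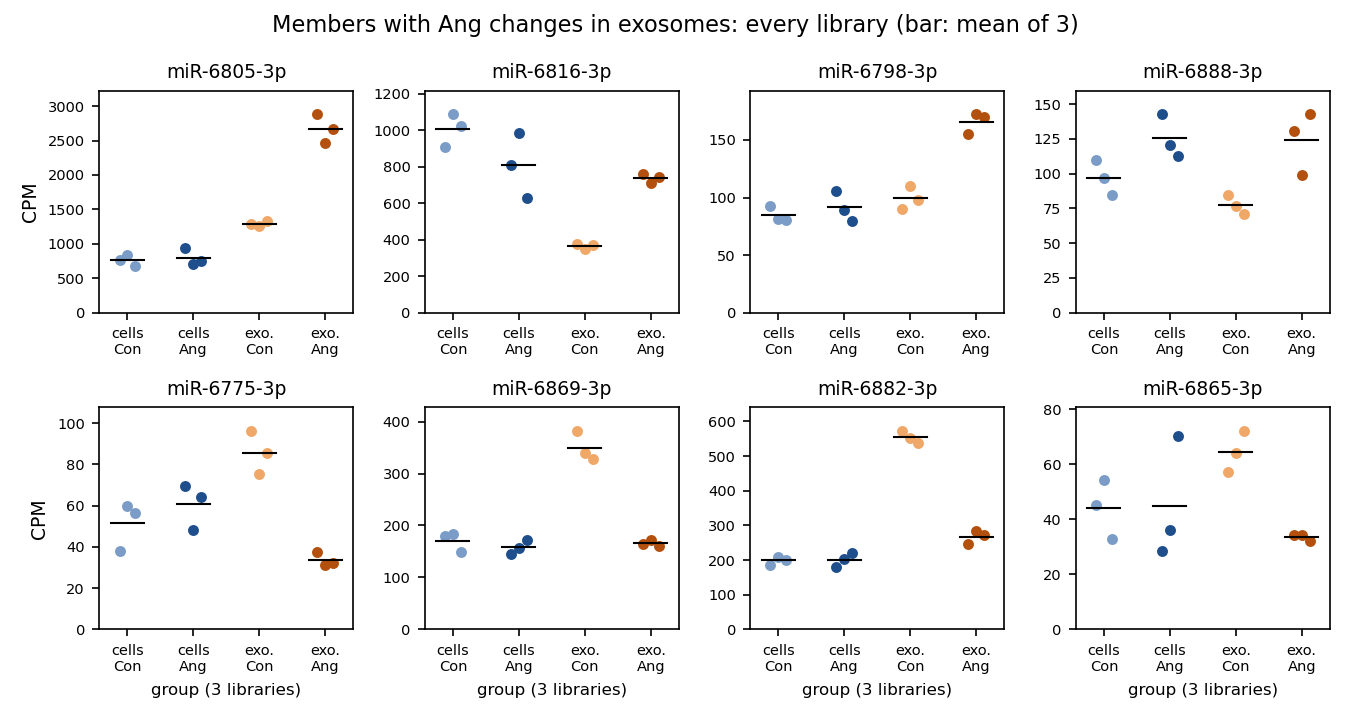
CPM (vertical axes from 0) in every library for the 4 members with the largest higher and the 4 with the largest lower Ang change in exosomes among those whose groups did not overlap. Bars are means of 3, and in each panel the 3 exosome Ang points lie apart from the 3 exosome Con points, while the 2 cell groups overlap except for miR-6888-3p.

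The 27 calls did not all hold under other processing. With library totals alone 9 members were higher and 26 lower, against 12.6% and 26.6% of all names. With RLE factors 13 were higher and 12 lower, against 18.3% and 14.9%. DESeq2, which also differs in its test and filter, called 13 higher and 8 lower, against 17.6% and 11.5%. Of the 27, 17 kept their call and direction in all 13 alternatives. Without exosomes Con replicate 1, the library that stood apart over all names, 28 members were called and 25 of them were among the 27. Without exosomes Ang replicate 2, which stood apart over the members, 24 were called. That fit kept 12 of the 13 higher and 9 of the 14 lower calls. Summed blood cell markers (7 names) were at 552 to 1279 CPM in exosomes Con, with the lowest value in replicate 1, and at 346 to 643 in exosomes Ang. The summed names that overlap other RNAs were at 26029 to 26971 and 17263 to 17910 CPM, and the pair miR-552-3p and miR-3972 took 17.2% ± 0.18 of exosome UMIs in Con and 29.1% ± 0.088 in Ang. Their part in the members' changes was not tested.

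Ang was compared with Con in cells in the same way. Of 125 tested members 3 were called, all higher, which is 2.4% against 6.56% of all 1630 names tested (2.76% higher and 3.8% lower). The groups did not overlap for 28 members (22.4%), as for 22.4% of all names. miR-6826-3p, from an intron of COPG1, a gene of the COPI vesicle coat, was counted at 30.3, 42.6 and 30.7 CPM in cells Con and at 61.2, 67.7 and 62.4 in cells Ang (log2 0.85, SE 0.23, adjusted p = 0.031). miR-6781-3p, from an intron of the autophagy gene BECN1, was at 85.1, 91.1 and 63.7 CPM in Con and at 99.9, 135 and 168 in Ang (log2 0.72, SE 0.20, adjusted p = 0.038). The groups lay apart for both, with the Ang libraries of miR-6781-3p spread from near the Con level upward.

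miR-6790-3p, at the donor of an intron of GTF2F1, a gene of the RNA polymerase II factor TFIIF, was at 779, 841 and 837 CPM in Con and at 1172, 1030 and 957 in Ang (log2 0.35, SE 0.089, adjusted p = 0.025). DESeq2 called 1 member higher (miR-6790-3p) and 2 lower (miR-6722-3p and miR-6884-3p), against 3.29% and 7.52% of all names. None of the 3 calls held in every alternative, and between 0 and 4 members were called when 1 library was left out. No member was called without cells Con replicate 1 or without cells Con replicate 3, and 1 was called without cells Con replicate 2, cells Ang replicate 1 or cells Ang replicate 3. Cells Ang replicate 2 was the library high in blood cell, endothelial and liver markers. Without it miR-6781-3p and miR-6790-3p were called with miR-6812-3p and miR-6816-3p, and miR-6826-3p was not. In exosomes the log2 changes of miR-6826-3p, miR-6781-3p and miR-6790-3p were -0.10, 0.19 and 0.10, and none passed the test.

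Whether Ang changed members by different amounts in exosomes and in cells was tested as the interaction over all 12 libraries. Of 142 tested members, 12 passed (8.45%, against 15.1% of all 1835 names), 6 with a more positive change in exosomes (9.97% of all names) and 6 with a more negative one (5.18%). All 12 were among the 27 called in exosomes, and none was called in cells. miR-6816-3p led, with a difference of 1.65 on the log2 scale (SE 0.18, adjusted p = 8.67e-06). Fitted separately, its changes were 1.18 in exosomes and -0.33 in cells (adjusted p = 0.15 in cells). The interaction has its own scaling factors over the 12 libraries, so it is not the exact difference of the separate fits. miR-6805-3p followed with 1.29 (SE 0.15, adjusted p = 1.62e-05), and its separately fitted change in cells was 0.06. At the other end miR-6775-3p had a difference of -1.30 (SE 0.28, adjusted p = 0.0035), with 0.25 in cells. With RLE factors 12 members were higher and 5 lower (13.6% and 4.2% of all names), with library totals 4 and 20 (5.07% and 12.1%). The balance of directions thus moved with the scaling. DESeq2, with its own test and filter as well, gave 9 and 3 (20.0% and 5.03%).

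**Figure D5:**
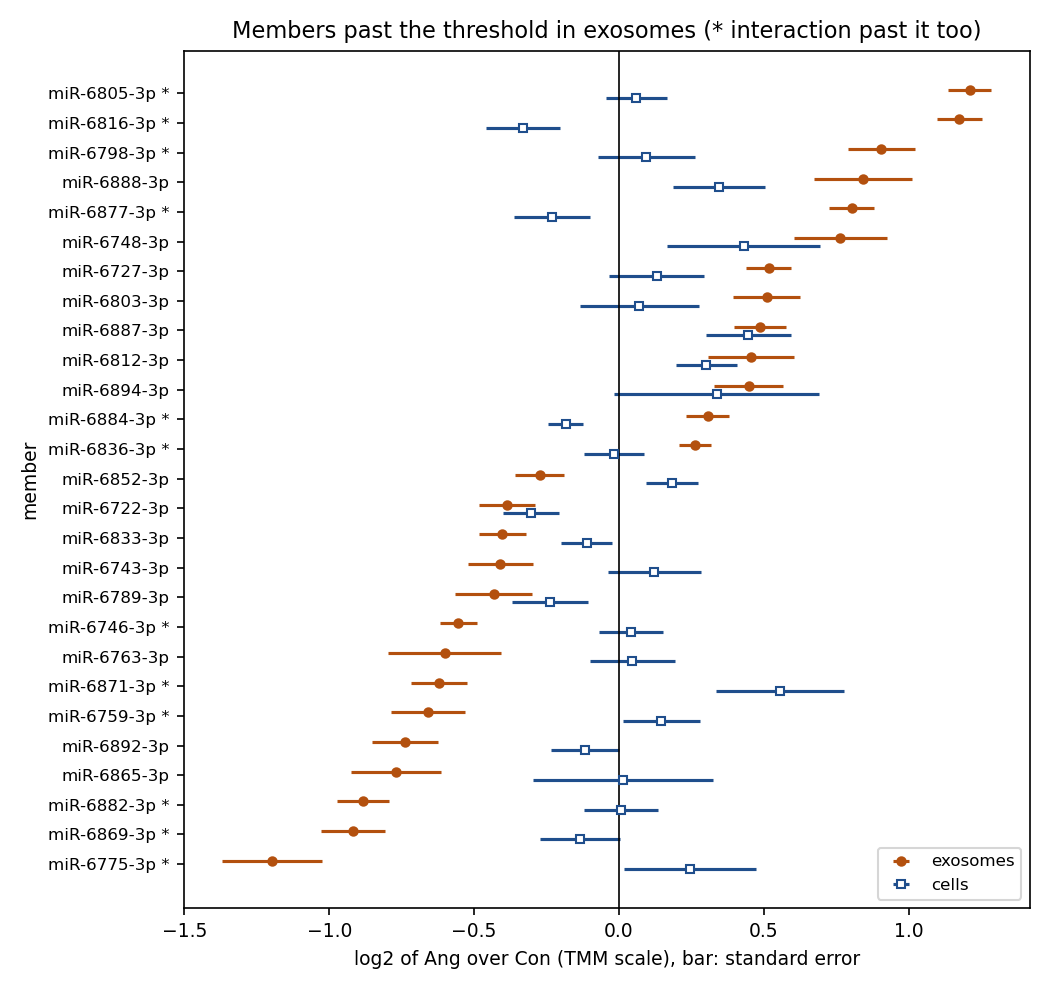
Log2 change of Ang over Con on the TMM scale (horizontal axis) for the 27 members called in exosomes, in exosomes (filled circles) and in cells (open squares), with bars of 1 standard error. Asterisks mark the 12 members whose interaction also passed the threshold, and most open squares lie near 0, with miR-6871-3p at 0.56 in cells and -0.62 in exosomes.

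Hosts with several members allowed a comparison within a gene. CAMTA2 holds miR-6864-3p and miR-6865-3p in introns of 200 and 254 bases. miR-6864-3p was at 171 ± 10 CPM in exosomes Con and 17.3 ± 5.01 in cells Con, and did not pass the test for Ang in exosomes (log2 0.18, adjusted p = 0.39), whereas miR-6865-3p was at 64.5 ± 7.40 and 44.2 ± 10.7 CPM and fell with Ang. KDM5C holds miR-6894-3p and miR-6895-3p. In exosomes over cells in Ang their log2 differences were 4.58 and -2.14, so members of one host gene lay on opposite sides. The other hosts with several members were ATG2A with 2 and PPP6R1 with 3.

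A list of mirtron products outside the number range held 14 names, 13 of them 3p arms (among them miR-877-3p and miR-1224-3p to miR-1229-3p) and miR-1231, whose name gives no arm. Of 12 tested in exosomes over cells in Con, 10 were higher (83.3%, against 39.2% of all names) and 1 lower (8.33%, against 44.2%), and of 11 in Ang 10 were higher and 1 lower. For Ang over Con in exosomes 4 of 11 were higher (36.4%, against 16.9%) and 3 lower (27.3%, against 17.1%). In cells 0 of 12 were higher, and the 1 lower name was miR-1231 (log2 -0.50, adjusted p = 0.00015). The 5p arms of the members' own hairpins gave 68 higher (54.0%) and 31 lower (24.6%) of 126 tested in exosomes over cells in Con, with a median log2 difference of 0.79, close to the members' 0.77. Their Ang calls in exosomes were 18 higher (17.1%) and 16 lower (15.2%) of 105 tested, near the 16.9% and 17.1% of all names. Both lists were chosen with earlier results of these data known.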

How the data were processed

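The authors deposited, per the file headers, UMI counts for each mature miRNA, in whole numbers and not normalized. The submitters' processing notes name cutadapt and the build GRCh38, while no source used here gives the aligner, the mismatches allowed or the miRNA annotation, so reads of similar members may have been split between names. The 76 names absent from the exosome files (0 members) were taken as 0. Sequences and hairpin coordinates came from RefSeq (GRCh38.p14) and hosts and splice sites from GENCODE release 29. For 3 members with several copies, the position of the first copy by chromosome and start was used.

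Each pair of groups was fitted to its 6 libraries, and the interaction to all 12, with edgeR 4.0.16 in R 4.3.3 (filterByExpr, TMM, two-sided quasi-likelihood test without the robust option, Benjamini-Hochberg over all tested names, threshold 0.05). The fits were also run on simulated data in which both groups of a pair shared a profile, apart from a drawn set of changed names. Such data cannot test the scaling between exosomes and cells, where most names differed. Alternatives were RLE factors, library totals, DESeq2 1.42.0, all 12 libraries, each library left out, a replicate block, and in place of the filter none or a mean of 10 CPM or more.

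The members, lists, rule and tests were chosen with earlier results of these data known. The rule names the 5 most abundant members of each group, the 8 largest changes each way among called members without overlap and with 10 CPM or more in a group (5 each way for the interaction), and called members that share a seed. Intervals are exact (95%) on summed counts. The main fits did not pair libraries by replicate number, since the labels state no pairing.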

Additional observations from a re-analysis of the deposited data

Results flagged for a closer look

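For 12 members the Ang change differed between exosomes and cells by the interaction test (edgeR's quasi-likelihood test, Benjamini-Hochberg adjustment over 1835 names). The log2 difference, exosomes minus cells, was 1.65 for miR-6816-3p, 1.29 for miR-6805-3p, 1.18 for miR-6877-3p, 0.95 for miR-6798-3p, 0.63 for miR-6884-3p and 0.42 for miR-6836-3p. It was -1.30 for miR-6775-3p, -1.03 for miR-6871-3p, -0.75 for miR-6882-3p, -0.67 for miR-6759-3p, -0.64 for miR-6869-3p and -0.45 for miR-6746-3p. miR-6877-3p was at 246 ± 26.6 and 212 ± 22.1 CPM in cells Con and Ang, against 380 ± 8.45 and 592 ± 18.2 in exosomes. miR-6871-3p was at 48.0 ± 11.2 and 71.4 ± 10.6 CPM in cells, against 326 ± 11.3 and 189 ± 5.07 in exosomes. miR-6775-3p, miR-6798-3p, miR-6805-3p, miR-6816-3p, miR-6871-3p, miR-6877-3p and miR-6882-3p passed in all 18 alternatives. The calls of miR-6836-3p, miR-6746-3p, miR-6759-3p, miR-6869-3p and miR-6884-3p ended in between 1 and 10 of them.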

How the results depend on the processing

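The members' share of UMIs without the leading member was 2.99% (Con) and 3.04% (Ang) in cells, and 3.36% and 3.11% in exosomes. With the UMIs of miR-552-3p and miR-3972 removed the exosome share was 6.86% in Con and 7.70% in Ang. With 1 library left out in turn the shares ran from 3.72% to 3.83% in Con and 3.71% to 3.74% in Ang for cells, and from 5.61% to 5.72% and 5.36% to 5.58% for exosomes. The counts of called members then ran from 20 to 28 for Ang in exosomes, 0 to 4 for Ang in cells, 90 to 107 for exosomes over cells in Con, 90 to 100 in Ang, and 8 to 13 for the interaction. For Ang in cells, 1 member was called with no count filter, 1 with all 12 libraries in the fit and 5 with the replicate number as a block. For the interaction, library totals gave 24 calls. On library totals 15 members called higher in exosomes over cells in Con and 24 in Ang were called lower. Among the members chosen by the naming rule, the log2 difference turned negative in Con for miR-6759-3p (-0.11), miR-6763-3p (-1.16), miR-6781-3p (-1.41), miR-6816-3p (-1.47) and miR-6888-3p (-0.34). It did so in Ang for miR-6759-3p (-1.09), miR-6775-3p (-0.89), miR-6816-3p (-0.14), miR-6826-3p (-0.71), miR-6865-3p (-0.45) and miR-6888-3p (-0.031). The replicate block gave 27 calls for Ang in exosomes, 99 and 96 for exosomes over cells in Con and in Ang, and 11 for the interaction. Deviations of same-numbered exosome libraries from their group means correlated at 0.26, 0.22 and -0.14. Not every library correlated best with its own number. With so few libraries per group these values cannot decide whether same-numbered libraries were paired. The cause of these changes was not tested beyond the altered scaling or library set itself. Depth limits the members under about 10 CPM in exosomes, where 3 counts come to 2.91 to 4.30 CPM.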
